A study of Mus musculus with 4 samples.

Results

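The genes described here are 9 mouse immune receptor genes and their adaptors, out of 24442 genes in the deposited count table. They were chosen by symbol: the adaptors Fcer1g, Tyrobp and Hcst, the IgG receptors Fcgr1, Fcgr2b, Fcgr3 and Fcgr4, and the receptors Trem1 and Trem2. All 9 were in the table and all passed the filter on low counts. RNA was sequenced from mammary cells of 5-week-old female mice that carry an eGFP reporter and the inducible CreErt2 recombinase at the Lgr6 locus, an allele shared by both groups. Cells were sorted as Lgr6-positive (2 libraries) or Lgr6-negative (2 libraries), and the labels describe the sort as starting from lineage-negative cells. The sort text given with all 4 samples speaks of Lgr6-positive cells only, and the groups follow the sample titles and cell type labels. Neither the lineage markers, nor the gate for Lgr6-negative cells, nor the number of animals per library is given in the sources used here, and no treatment is named. Nothing states that the replicates came from separate animals, so p-values reflect the spread among these 4 libraries, which may be technical only.

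Immune cells read bound antibody and other ligands through receptors that have little signalling capacity of their own and pair with small membrane adaptors. FcR gamma (Fcer1g) and DAP12 (Tyrobp) carry an immunoreceptor tyrosine-based activation motif, or ITAM, which Src-family kinases phosphorylate and the kinase Syk then binds. DAP10 (Hcst) carries no ITAM and recruits phosphoinositide 3-kinase instead. In the mouse, the IgG receptors Fcgr1, Fcgr3 and Fcgr4 pair with FcR gamma, Trem1 and Trem2 pair with DAP12, and Fcgr2b is the inhibitory IgG receptor with a motif of its own (ITIM). In the mammary gland, such genes are best known from macrophages and other leukocytes that lie around the ducts.

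The libraries held between 6819127 and 7167465 counts. The ribosomal precursor Rn45s took 17.2% and 14.5% of the counts in Lgr6-positive libraries, against 18.7% and 30.8% in Lgr6-negative libraries, and was called lower (edgeR adjusted p = 0.0225). With Rn45s left out of the counts, the same 4 of the 9 genes were called. Lgr6 itself had 172 and 655 counts in Lgr6-positive libraries, against 3 and 10 counts in Lgr6-negative libraries (log2 fold change 5.52, SE 1.47, edgeR adjusted p = 0.0510). All 14 listed mammary epithelial markers were detected in both groups. Their summed level was 5221 and 5510 CPM (counts-per-million after TMM scaling) in Lgr6-positive libraries and 332 and 305 CPM in Lgr6-negative libraries. Of the 14, 9 were called higher and 5 were not called. Of all tested genes, 4.49% were called higher and 4.57% lower. Of 6 listed pan-leukocyte markers, all were lower in Lgr6-positive cells, summing to 352 and 156 CPM in Lgr6-positive libraries and 5601 and 6203 CPM in Lgr6-negative libraries. The Lgr6-negative libraries thus carried RNA of leukocyte markers although the sort is labelled lineage-negative. In such bulk samples, fewer cells of a type and less RNA per cell cannot be told apart.

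The 9 genes together took 0.0194% and 0.0241% of all counts in Lgr6-positive libraries, against 0.268% and 0.286% in Lgr6-negative libraries. Of the 9, Fcer1g, Tyrobp, Fcgr2b and Trem1 were lower in Lgr6-positive cells, that is 4 called lower, 0 called higher and 5 not called (Hcst, Fcgr1, Fcgr3, Fcgr4 and Trem2). A call means an adjusted p under 0.05 (edgeR quasi-likelihood, Benjamini-Hochberg over all genes). Among all 11661 tested genes 4.57% were called lower, 4.49% higher and 9.06% in either direction. At an unadjusted p under 0.05, 7 of the 9 were lower and 0 higher, beside 10.8% of all tested genes lower and 14.3% higher. DESeq2 and limma-voom called 0 of the 9 higher, beside 1412 and 754 of all 11661 tested genes. In 7 of the 9 genes, every Lgr6-positive library lay below every Lgr6-negative library, as 25.9% of all tested genes did. The exceptions were Fcgr4 and Trem2, whose groups overlapped. The median log2 fold change of the 9 genes, Lgr6-positive over Lgr6-negative, was -4.24, beside 0.10 for all tested genes.

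Fcer1g and Tyrobp, which encode the FcR gamma and DAP12 adaptors, had the highest levels per kb of exon of the 9 genes in both groups and were both lower in Lgr6-positive cells. Fcer1g had 487 and 869 counts in Lgr6-positive libraries, against 6654 and 8073 in Lgr6-negative libraries. These are 84.9 ± 35.6 CPM in Lgr6-positive and 1237 ± 281 CPM in Lgr6-negative cells (mean ± SD over n = 2 libraries per group, as elsewhere). The groups were far apart, and the log2 fold change was -3.86 (SE 0.42, adjusted p = 0.00139). Tyrobp had 618 and 191 counts in Lgr6-positive libraries, against 7141 and 8767 in Lgr6-negative libraries, or 50.0 ± 36.5 CPM against 1336 ± 314 CPM. Its log2 fold change was -4.74 (SE 0.58, adjusted p = 0.00202). Leaving out Lgr6-positive replicate 1, which holds most of the remaining Tyrobp counts, gave -5.79 (edgeR adjusted p = 3.39e-12). In such fits the lone library is assumed to vary like the other group. Both adaptor genes passed under each of 14 alternative settings, 2 of which only summed IgG receptor rows and left the adaptor counts unchanged.

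The adaptors kept a nearly fixed ratio in the Lgr6-negative libraries and not in the Lgr6-positive ones. For each Tyrobp count there were 0.788 and 4.55 Fcer1g counts in Lgr6-positive libraries, against 0.932 and 0.921 Fcer1g counts in Lgr6-negative libraries. This ratio within a library does not depend on scaling. Replicate 2 of the Lgr6-positive population stood apart, with more Fcer1g and less Tyrobp than replicate 1. With 2 libraries per group the difference between those replicates was not tested.

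Hcst, the DAP10 gene, had no counts in either Lgr6-positive library, against 41 and 127 counts in the Lgr6-negative libraries. Lgr6-negative libraries had 6.40 and 22.6 CPM. Set against a floor of 3 counts per library, Hcst was at least 38.7-fold lower in Lgr6-positive cells, but its adjusted p was 0.0701. The bound was 60.4-fold with Lgr6-negative replicate 1 left out, where Hcst passed (adjusted p = 0.0436), and 17.1-fold with replicate 2 left out (0.402). It also passed in DESeq2 (0.00172), in limma-voom (0.0228) and without the count filter (0.0398). A floor of this kind covers counting error alone: the cDNA was amplified and no molecular identifiers are named, so reads are not independent molecules. Hcst and Tyrobp are neighbours on chromosome 7 of GRCm38. Tyrobp runs from 30413760 to 30417585 on the plus strand and Hcst from 30417712 to 30419854 on the minus strand, so that 126 bases separate their 3′ ends. In GENCODE M21 neither shares exonic bases with another annotated gene. The annotation and strand setting behind the deposited counts are not named, so mixing of reads between the 2 genes was not tested.

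The activating IgG receptors had lower values in Lgr6-positive cells, but none of the 3 passed the test. Fcgr1, the high-affinity IgG receptor, had 30 and 1 counts in Lgr6-positive libraries, against 184 and 246 in Lgr6-negative libraries. Nearly all of its Lgr6-positive counts came from replicate 1. Its log2 fold change was -4.24 (SE 1.71, adjusted p = 0.161), and without that library it was -7.96 and passed (0.0141). With Lgr6-positive replicate 2 left out it was -3.32 (0.274). It also passed in DESeq2 (0.0224). Fcgr1 lies on chromosome 3 from 96282909 to 96293969, apart from its relatives.

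Fcgr3, a low-affinity receptor of macrophages and natural killer cells, had 12.8 and 48.5 CPM in Lgr6-positive libraries, against 129 and 117 CPM in Lgr6-negative libraries. The Lgr6-positive libraries differed from each other by more than the Lgr6-negative ones. The fitted log2 fold change, -2.01 (SE 0.80, adjusted p = 0.152), became -3.30 when Lgr6-positive replicate 2 was left out and then passed (0.00402). With replicate 1 left out it was -1.35 (0.274). Fcgr4, the mouse receptor for IgG2a and IgG2b, had 10 and 78 counts in Lgr6-positive libraries, against 51 and 221 in Lgr6-negative libraries. The groups overlapped, and its log2 fold change was -2.08 (SE 1.65, 95% interval from -5.83 to 1.66, adjusted p = 0.518). Single libraries moved it widely, to -4.27 with Lgr6-positive replicate 2 left out and to -0.52 with Lgr6-negative replicate 2 left out. It was -2.82 with Lgr6-negative replicate 1 left out and -1.26 with Lgr6-positive replicate 1 left out, and passed in none of these fits.

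Fcgr2b, the inhibitory IgG receptor, was lower in Lgr6-positive cells. The authors' expected counts were 17.55 and 0 in Lgr6-positive libraries, against 737.73 and 446.47 in Lgr6-negative libraries. The groups were separated, at 1.10 ± 1.56 CPM against 97.2 ± 25.4 CPM, with a log2 fold change of -6.43 (SE 1.59, adjusted p = 0.0395). Scaling by total counts ended the call (0.0674). Without replicate 1 of the Lgr6-positive population no count was left there, and Fcgr2b was at least 256-fold lower. Without replicate 2 the log2 fold change was -5.48 (adjusted p = 9.88e-05). Whether Fcgr2b differed more than the activating receptors was not tested, and its 95% interval, from -10.04 to -2.82, overlaps that of Fcgr3, from -3.81 to -0.20.

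**Figure D1:**
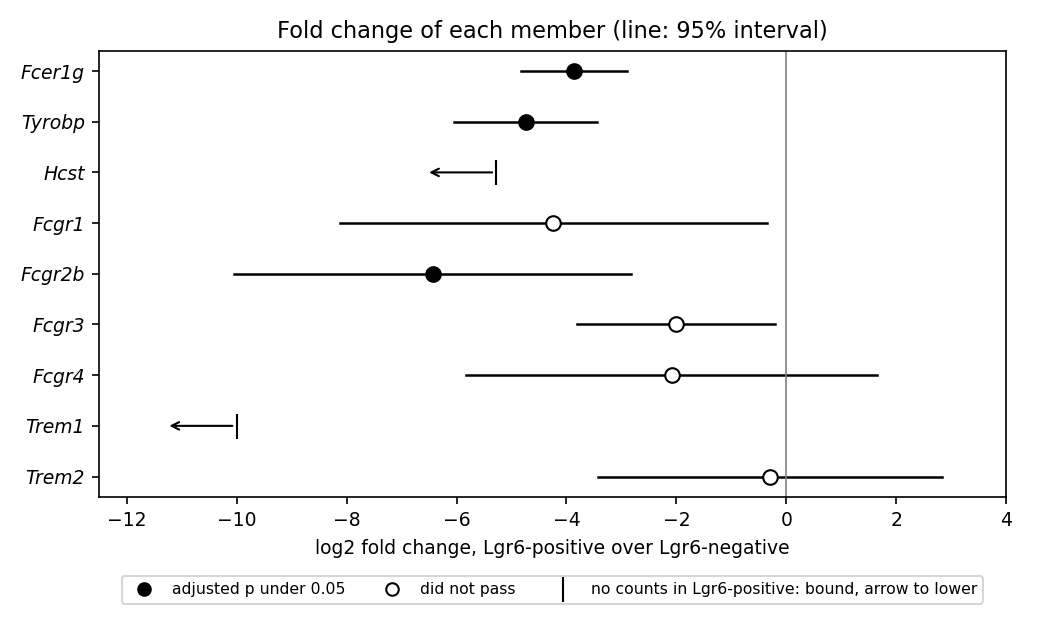
Log2 fold change of each gene, Lgr6-positive over Lgr6-negative, with 95% intervals from edgeR as lines; filled points passed an adjusted p of 0.05, open points did not, and bars with arrows are bounds for the genes without counts in Lgr6-positive libraries. The bound of Hcst did not pass and that of Trem1 did; the interval of Trem2, from -3.42 to 2.83, spans 0.

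Fcgr2b, Fcgr4 and Fcgr3 lie in a row on chromosome 1 of GRCm38, with Fcer1g beyond them, within 275.7 kb. Fcgr2b spans 170958617 to 170976547 and Fcgr3 spans 171051174 to 171064935, both on the minus strand. Fcgr4 spans 171018920 to 171029761 on the plus strand, and Fcer1g spans 171229572 to 171234365 on the minus strand. Fcgr2b and Fcgr3 were the only members with fractional values, and their fractions add up: the pair summed to 122 and 383 in Lgr6-positive libraries and to 1565 and 1107 in Lgr6-negative libraries, whole numbers at the 2 decimals deposited. The values are those of reads divided between this pair. Among the 9 genes, they were the only pair whose annotated transcripts share a run of 50 bases, the read length. They share 166 such runs, which are 9.58% of those in Fcgr3 transcripts and 2.92% of those in Fcgr2b transcripts. The longest stretch in common is 129 coding bases across exons 3 and 4 of both genes. It is shown because a read pair that lies wholly inside it matches both genes alike. In Fcgr2b it lies within chr1:170966674-170968081 and in Fcgr3 within chr1:171054167-171057792 (both GRCm38, minus strand, intron left out).
Shared stretch of Fcgr2b and Fcgr3 transcripts: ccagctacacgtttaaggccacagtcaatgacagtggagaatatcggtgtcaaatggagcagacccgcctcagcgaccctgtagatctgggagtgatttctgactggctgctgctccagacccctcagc

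The 2 receptors were therefore also taken as one. Their summed counts gave a log2 fold change of -2.80 (SE 0.69, adjusted p = 0.0380), a choice made after the fractions were seen. With Fcgr4 added, the sum of 132 and 461 counts in Lgr6-positive libraries stood against 1616 and 1328 in Lgr6-negative libraries, at -2.71 (SE 0.68, adjusted p = 0.0418). Both sums passed; both hold Fcgr2b, which passed alone, and Fcgr3 and Fcgr4 alone did not.

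Per kb of exon, Fcgr3 was the leading low-affinity IgG receptor in every library. It held 84.6% and 78.0% of the summed level of Fcgr2b, Fcgr3 and Fcgr4 in Lgr6-positive libraries, against 73.9% and 60.1% in Lgr6-negative libraries. Fcgr2b held 4.26% and 0% in Lgr6-positive libraries, against 19.8% and 12.2% in Lgr6-negative libraries. Fcgr4 held 11.2% and 21.97% in Lgr6-positive libraries, within the 6.30% and 27.8% of Lgr6-negative libraries. The shares of Fcgr2b and Fcgr3 did not overlap between groups, while those of Fcgr4 did. In each library the shares are parts of one sum, so a lower share of Fcgr2b raises the others. The separations of Fcgr2b and Fcgr3 are therefore not separate results. How often such shares separate for other genes was not determined. These shares rest on how the authors' estimation divided the shared reads and were not tested. They also rest on the length used, 5.79 kb of exon for Fcgr2b, where its longest transcript has 3.54 kb. Without division by length, Lgr6-negative libraries held 1.12 and 1.48 Fcgr3 counts per Fcgr2b count.

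**Figure D2:**
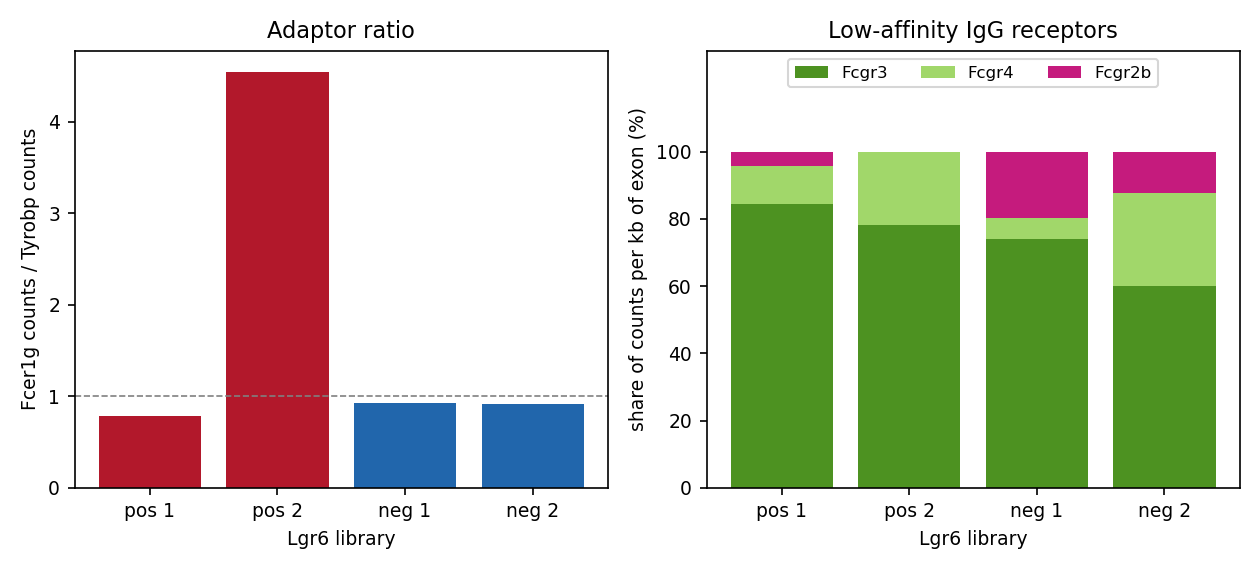
Left, Fcer1g counts per Tyrobp count in each library, with a dashed line at 1; right, share of the summed counts per kb of exon held by Fcgr3, Fcgr4 and Fcgr2b in each library (pos, Lgr6-positive; neg, Lgr6-negative; 1 and 2, replicates). The adaptor ratio is 4.55 in Lgr6-positive replicate 2 and below 1 in the other libraries, and Fcgr2b holds 19.8% and 12.2% in Lgr6-negative libraries, above its share in Lgr6-positive libraries.

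Of the TREM receptors, which both signal through DAP12, Trem1 was lower in Lgr6-positive cells and Trem2 did not pass. Whether their changes differ was not tested. Trem1, an amplifier of inflammatory responses on monocytes and neutrophils, had no counts in either Lgr6-positive library, against 2795 and 1862 counts in Lgr6-negative libraries. With 436 and 331 CPM in Lgr6-negative libraries and a floor of 3 counts per library, Trem1 was at least 1025-fold lower in Lgr6-positive cells (edgeR adjusted p = 4.81e-04). The bound was 885-fold with Lgr6-negative replicate 1 left out and 1166-fold with replicate 2 left out. It covers counting error alone. Trem1 passed under each of 14 alternatives, the 2 sums of IgG receptor rows among them. Trem2, a lipid and lipoprotein receptor of tissue macrophages and microglia, had 53 and 166 counts in Lgr6-positive libraries, against 116 and 88 in Lgr6-negative libraries. At 13.8 ± 10.3 CPM against 16.9 ± 1.74 CPM the groups overlapped, and Lgr6-positive replicate 2 was the highest of the 4 libraries. The log2 fold change was -0.29 (SE 1.38, 95% interval from -3.42 to 2.83, adjusted p = 0.943). It changed sign under scaling by total counts (0.12) and with Lgr6-positive replicate 1 left out (0.31), and was -1.40 with replicate 2 left out. In the Lgr6-negative libraries Trem2 had 0.0415 and 0.0473 counts per Trem1 count. Both genes lie on the plus strand of chromosome 17, Trem1 from 48232768 to 48246924 and Trem2 from 48346401 to 48354147, with 99.5 kb between them.

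The members stood at unequal parts of their Lgr6-negative level, and differences between members were not tested. Ptprc, the pan-leukocyte gene CD45, stood at 3.30% and 1.60% of its Lgr6-negative mean in the 2 Lgr6-positive libraries. Tyrobp was close to it, at 5.67% and 1.81%, and Fcer1g was at 4.83% and 8.90%. Fcgr3 reached 10.3% and 39.4%, Fcgr4 5.19% and 41.8%, and Trem2 38.5% and 125%. Fcgr1 was at 10.2% and 0.350%, Fcgr2b at 2.27% and 0%, and Hcst and Trem1 were at 0% in both. Replicate 2 thus held the larger part of Fcer1g, Fcgr3, Fcgr4 and Trem2 and the smaller part of Tyrobp, Fcgr1, Fcgr2b and Ptprc.

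Compared per kb of exon, the adaptor genes Fcer1g and Tyrobp far exceeded the receptors, and Hcst did not. In Lgr6-negative cells Tyrobp (2003 CPM per kb) stood above Fcer1g (1415), and Trem1 (128) above Fcgr3 (71.0), in both libraries. Hcst (20.1), Fcgr4 (18.8), Fcgr2b (16.8) and Fcgr1 (14.0) followed with ranges that overlapped, and Trem2 (3.41) was lowest in both libraries. In Lgr6-positive cells Fcer1g (97.2 CPM per kb) and Tyrobp (74.9) overlapped and led. Fcgr3 (17.7), Fcgr4 (4.42), Trem2 (2.78), Fcgr1 (0.735) and Fcgr2b (0.191) came next, each overlapping its neighbour in that order, and Hcst and Trem1 had no counts. With the longest transcript in place of all exons, Fcgr2b moved above Fcgr4 in Lgr6-negative cells and no other position changed. For Trem2 the 2 lengths are nearly the same, 4.95 kb of exon and 4.78 kb for the longest transcript. Shorter transcripts were not tried, so the place of Trem2 in this order depends on these lengths.

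Genes of the same pathways were taken from 7 related lists, to be read beside the calls among all tested genes. In edgeR, 4.57% of all 11661 tested genes were called lower and 4.49% higher. DESeq2 called 1003 of them lower and 1412 higher, and limma-voom 728 lower and 754 higher. Of 20 tested receptors that also pair with FcR gamma, DAP12 or DAP10, 11 were lower and 9 did not pass, with a median log2 fold change of -7.14, or -5.55 with genes absent from Lgr6-positive libraries at their bound. All tested genes had a median of 0.10. Pira6, an activating paired immunoglobulin-like receptor whose relatives are close in sequence, had 14 and 13 counts in Lgr6-positive libraries, against 926 and 1196 in Lgr6-negative libraries (log2 fold change -6.71, SE 0.77, adjusted p = 0.00158). Clec4e, the receptor Mincle, had 21 and 163 counts against 4869 and 2979 (-5.79, SE 0.91, adjusted p = 0.00628), and the value was -4.97 or -7.98 with Lgr6-positive replicate 1 or 2 left out. Its partner Clec4d had 6 and 0 counts against 739 and 666 (-8.23, SE 1.40, adjusted p = 0.00885), all Lgr6-positive counts being from replicate 1; with replicate 2 left out it was -7.30. Klrk1, the receptor NKG2D, which signals through DAP10 and in the mouse also through DAP12, had 1 and 0 counts in Lgr6-positive libraries, against 426 and 233 in Lgr6-negative libraries. Lgr6-negative over Lgr6-positive cells this was 879-fold (95% interval for counting error, 157 to 34758, edgeR adjusted p = 0.0116).

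In the TREM locus, 2 of the other 3 tested genes were lower and 1 did not pass, beside 4.57% of all tested genes lower. Treml4 had no counts in Lgr6-positive libraries, against 1934 and 2070 in Lgr6-negative libraries, so that both it and Trem1 were absent there. Trem3, a DAP12-associated receptor of the mouse, had 1 and 0 counts in Lgr6-positive libraries, against 232 and 137 in Lgr6-negative libraries. Lgr6-negative over Lgr6-positive cells this was 492-fold (95% interval for counting error, 87.8 to 19485, edgeR adjusted p = 0.0354). Leaving out Lgr6-negative replicate 1 ended the call (0.0767), as did scaling by total counts (0.0539). Treml2 had 74 and 0 counts against 72 and 101 and did not pass (adjusted p = 0.720). Of the other Fc receptors, 0 of 4 tested passed in edgeR in either direction, beside 9.06% of all tested genes. At that share, 0 of 4 does not set the list apart. There were also 0 at an unadjusted p under 0.05, 0 in DESeq2 and 0 in limma-voom. Fcgrt, the neonatal Fc receptor that recycles IgG, had 464 and 294 counts in Lgr6-positive libraries, against 115 and 125 in Lgr6-negative libraries (log2 fold change 1.23, SE 0.97, adjusted p = 0.515). Of the other ITAM chains, those of the T and B cell receptors, 0 of 5 tested passed in edgeR, which again does not set the list apart. Their median log2 fold change was -4.04. At an unadjusted p under 0.05, 2 were lower, beside 10.8% of all tested genes, as were 3 in DESeq2 and 2 in limma-voom. Among these, Cd3e had 58 and 0 counts in Lgr6-positive libraries, against 451 and 368 in Lgr6-negative libraries (adjusted p = 0.167). With Lgr6-positive replicate 1 left out, its adjusted p was 1.20e-04.

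Downstream of the ITAM, 11 of 27 tested kinases and adaptors were lower and 16 did not pass, beside 4.57% of all tested genes lower. Their median log2 fold change was -2.88. Lyn, the Src-family kinase of myeloid and B cells, stood at 45.9 ± 5.73 CPM in Lgr6-positive and 599 ± 55.9 CPM in Lgr6-negative cells, with a fitted log2 fold change of -3.71 (SE 0.41, adjusted p = 0.00143). Lcp2, the adaptor SLP-76, had 14 and 67 counts against 2149 and 3631 (log2 fold change -6.58, SE 0.85, adjusted p = 0.00267), and its value was -5.85 or -8.17 with Lgr6-positive replicate 1 or 2 left out. Syk itself had 129 and 11 counts in Lgr6-positive libraries, against 2116 and 1752 in Lgr6-negative libraries (-5.22, SE 1.02, adjusted p = 0.0153). With Lgr6-positive replicate 1 left out, the value was -7.83, and with replicate 2 left out -4.37.

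On the inhibitory side, of 17 tested ITIM receptors and inhibitory phosphatases, 9 were lower and 8 did not pass. Their median log2 fold change was -4.17, and 4.57% of all tested genes were lower. Pilra, an inhibitory receptor of myeloid cells, had 0 and 1 counts in Lgr6-positive libraries, against 1105 and 677 in Lgr6-negative libraries. Lgr6-negative over Lgr6-positive cells this was 2376-fold (95% interval for counting error, 426 to 93901, edgeR adjusted p = 0.00143). Clec12a, an inhibitory C-type lectin, had 135 and 77 counts against 1827 and 1361 (log2 fold change -4.32, SE 0.60, adjusted p = 0.00343). Sirpa, the receptor for CD47, remained at 97.9 ± 42.4 CPM in Lgr6-positive cells, against 750 ± 147 CPM in Lgr6-negative cells (-2.94, SE 0.44, adjusted p = 0.00471). The 6 lists given so far are other Fc receptors, TREM locus, pairing receptors, ITAM chains, kinases and adaptors, and ITIM receptors and phosphatases. As fitted to all 4 libraries with edgeR (TMM), DESeq2 or limma-voom, 0 of their genes were called higher. In edgeR 4.49% of all tested genes were. At an unadjusted p under 0.05 in edgeR, 1 gene of these lists was higher, beside 14.3% of all tested genes. It was a kinase or adaptor gene (Pik3r1, log2 fold change 1.36, adjusted p = 0.0922). Pik3r1, a regulatory subunit of phosphoinositide 3-kinase, was called higher in edgeR under scaling by total counts (0.0399) and with Lgr6-positive replicate 1 left out (0.0364).

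Proposed ligands of the TREM receptors split, with 2 of 5 lower, 2 higher and 1 not passing. Of all tested genes, 4.57% were lower and 4.49% higher. Pglyrp1, a peptidoglycan-binding ligand of TREM1, had no counts in Lgr6-positive libraries, against 903 and 1301 in Lgr6-negative libraries, which makes it at least 498-fold lower (adjusted p = 0.00106). Cd177, a neutrophil surface protein, was also lower, with 0 and 18 counts against 395 and 724 (log2 fold change -6.36, adjusted p = 0.0446, and 0.0708 under scaling by total counts). Its value was -5.37 with Lgr6-positive replicate 1 left out and -5.74 with Lgr6-negative replicate 2 left out, and without Lgr6-positive replicate 2 no counts remain there. Clu, the lipoprotein clusterin that binds TREM2, was higher, at 451 ± 123 CPM in Lgr6-positive cells, against 19.2 ± 1.77 CPM in Lgr6-negative cells (log2 fold change 4.56, SE 0.49, adjusted p = 0.00132). Apoe, another TREM2 ligand, was higher at 600.4 ± 43.4 CPM against 173 ± 97.9 CPM (1.80, SE 0.46, adjusted p = 0.0449), a call that ended when Lgr6-negative replicate 1 was left out (0.102), and 2.52 on the log2 scale when replicate 2 was left out. Both ligands are also made by cells other than leukocytes.

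**Figure D3:**
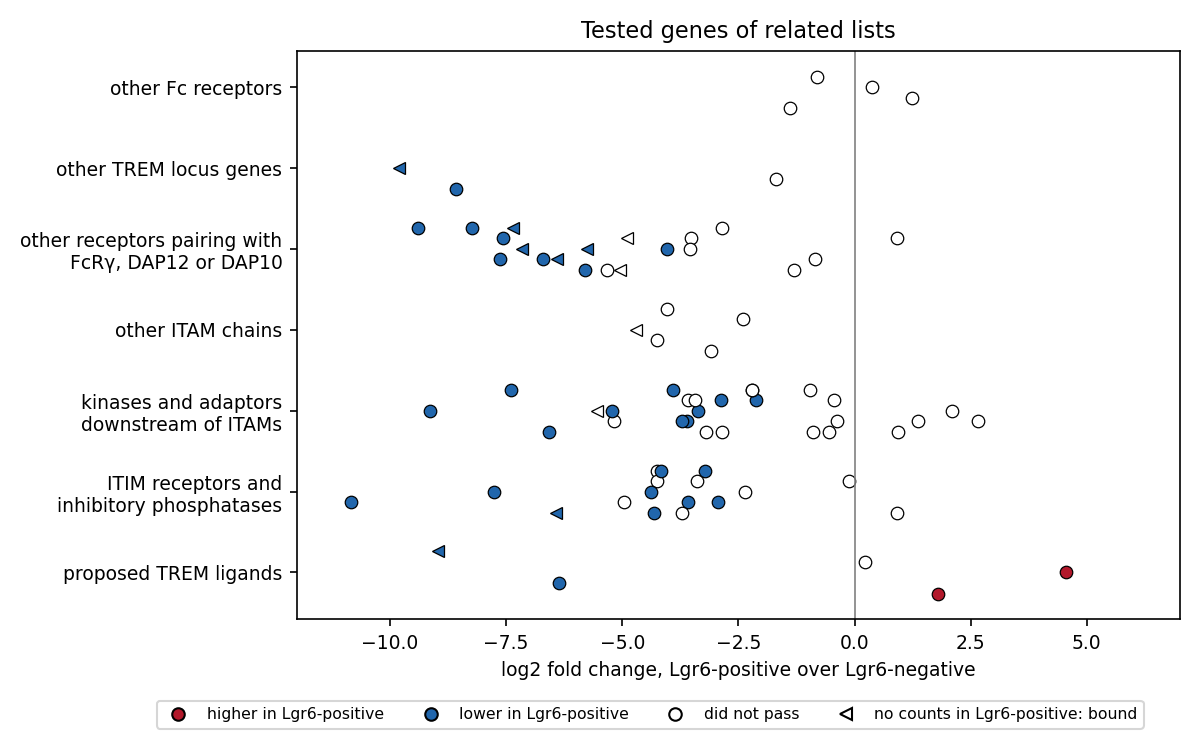
Log2 fold change, Lgr6-positive over Lgr6-negative, of each tested gene in 7 related lists; blue marks genes lower and red marks genes higher in Lgr6-positive cells at an adjusted p under 0.05, white those that did not pass, and triangles are bounds for genes without counts in Lgr6-positive libraries. The 2 red points are the TREM2 ligands Clu and Apoe.

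Markers of the cells that use these receptors are given beside them, and their part in the results was not tested. Each marker count here and in the paragraphs that follow stands beside 4.57% of all tested genes lower and 4.49% higher. At an unadjusted p under 0.05 (edgeR) these shares were 10.8% and 14.3%. Of 10 monocyte markers, 9 were lower and 1 did not pass, with a summed level of 706 and 633 CPM in Lgr6-positive libraries, against 6655 and 7000 CPM in Lgr6-negative libraries. Of 9 tested macrophage markers, 2 were lower (Csf1r and Cd68) and 7 did not pass. The list stood at 477 and 365 CPM in sum in Lgr6-positive libraries, against 1605 and 2174 CPM in Lgr6-negative libraries, and Vsig4 was at 0 in all 4 libraries. The median log2 fold change of the 9 was only -0.24, with 5 of them negative. At an unadjusted p under 0.05 (edgeR), 2 were lower and 2 higher. Cd68 had a log2 fold change of -2.25 (edgeR adjusted p = 0.0105). In that list Csf1r, the colony-stimulating factor receptor, had 418 and 840 counts against 6332 and 7891 (log2 fold change -3.92, adjusted p = 0.00168, and -4.57 with Lgr6-positive replicate 2 left out). C1qc, a complement gene of tissue macrophages, instead had 218 and 68 counts in Lgr6-positive libraries, against 0 and 5 in Lgr6-negative libraries. Mertk, a receptor for apoptotic cells, had 96 and 69 counts against 1 and 1. Neither passed (adjusted p of 0.185 and 0.132), though both did in DESeq2 (0.0329 and 0.0272).

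Natural killer cells use Hcst, Fcgr3 and Fcer1g. Of 9 tested natural killer cell markers, 7 were lower and 2 did not pass, with a summed level of 0.490 and 0 CPM in Lgr6-positive libraries, against 524 and 512 CPM in Lgr6-negative libraries. At 0 in both Lgr6-positive libraries were Ncr1, Klrb1c, Klrd1, Prf1, Gzmb, Nkg7 and Klra8. Mast cells and basophils use Fcer1g in the IgE receptor. The chains of that receptor, Fcer1a and Ms4a2, were at 0 in both Lgr6-positive libraries, against 31 and 4 counts of Fcer1a and 74 and 3 of Ms4a2 in Lgr6-negative libraries. Of 10 listed mast cell and basophil markers only Kit and Hdc were tested. Kit, which epithelial cells also express, was higher (log2 fold change 2.95, adjusted p = 0.0311) and Hdc did not pass. The Kit call was lost in limma-voom (0.0775) and with Lgr6-positive replicate 1 left out (2.08, adjusted p = 0.152).

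Of 10 tested neutrophil markers, 6 were lower, 1 was higher and 3 did not pass, at 537 and 672 CPM in sum in Lgr6-positive libraries, against 1832 and 1786 CPM in Lgr6-negative libraries. The higher one was Ltf, lactoferrin, which mammary epithelium also makes. Its log2 fold change of 3.67 was 4.73 with Lgr6-negative replicate 1 left out and 3.05 with replicate 2 left out. Retnlg, a resistin-like gene of neutrophils, had 79 and 149 counts in Lgr6-positive libraries and 0 in both Lgr6-negative libraries. It did not pass in edgeR (adjusted p = 0.0725), but was higher in DESeq2 (0.00217), in limma-voom (0.0191), under the stricter filter (0.0454) and with Lgr6-positive replicate 1 left out (0.0368). DESeq2 and limma-voom thus called 2 neutrophil markers higher, and 7 and 6 lower. Ly6g was at 0 in all libraries. Of 6 tested dendritic cell markers 1, Ccr7, was lower and 5 did not pass, at 44.6 and 17.9 CPM against 275 and 201 CPM. Of 6 tested B cell markers 0 passed in edgeR (114 and 111 CPM in sum against 127 and 107 CPM), with 0 at an unadjusted p under 0.05, 1 lower in DESeq2 and 0 in limma-voom. Of 6 tested T cell markers 0 passed in edgeR (8.09 and 22.4 CPM against 136 and 132 CPM), with 4 lower at an unadjusted p under 0.05, 3 in DESeq2 and 3 in limma-voom. Some genes stand in more than one list, among them Ncr1, Klrk1, Fcer1a, Cd79a, Cd79b and the Cd3 chains.

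The genes most like each adaptor were sought among all tested genes, by the Euclidean distance between centred log2 CPM values over the 4 libraries. Nearest to Tyrobp were Agpat4, Fbxl2, Ttc7, Isg15 and Bcl2a1d, at distances of 0.100 to 0.274 log2 units. Isg15 is an interferon-induced ubiquitin-like protein and Bcl2a1d a survival factor of leukocytes. Nearest to Fcer1g were Csf1r, the complement factor gene Cfb, the invariant chain gene Cd74, the chemokine receptor gene Ccr6 and Pkmyt1, at 0.148 to 0.327. Tyrobp and Fcer1g lay 2.05 apart, and Fcer1g ranked 539 among the 11661 tested genes by distance from Tyrobp. Of the members, Fcgr1 (118) and Hcst (279) ranked nearer to Tyrobp, and the others ranked farther. From Fcer1g, Fcgr3 (487) and Hcst (536) ranked nearer than Tyrobp (661), and the other members ranked farther. Of the named neighbours, Fbxl2, Isg15, Ccr6 and Pkmyt1 were not called (edgeR adjusted p of 0.147, 0.0880, 0.164 and 0.160). Ccr6 had 0 and 1 counts in Lgr6-positive libraries, against 26 and 31 in Lgr6-negative libraries. Fbxl2 had 4 and 0 counts against 76 and 105, and Pkmyt1 5 and 8 against 92 and 127. At such counts the distance depends in part on the prior count of 2 added before the log. The distances rest on 4 libraries of 2 groups and are a description.

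Promoter windows were read from RefSeq (GRCm38.p6), where 8 of the 9 genes were matched and Tyrobp was not. Each window holds 250 bases before and 50 bases after the start. For Fcgr3 there were 2 windows and only the first was read, as 1 window per gene was read throughout. The start of that window lies inside the Fcgr3 span given above, and motifs in the other window were not sought. The bases after the start of the Trem1 window were not found in Trem1 transcripts of GENCODE M21. The hexamer GAGGAA, a core of sites of the myeloid factor PU.1, was searched on both strands and occurs in the windows of Fcgr1, Fcgr3, Fcgr4, Trem1 and Trem2, that is 5 of 8, and in 28.3% of 27025 gene windows (23.1% when the bases before the start alone are read, with the same 5 members). It was not found in those of Fcer1g, Hcst and Fcgr2b. Genes with and without it were among those called lower, and Trem1 and Trem2 both hold it. The motif TTGCNNAA, the form of C/EBP sites, was found in Fcgr3 and Trem2, 2 of 8, and in 10.8% of all windows. The Trem2 match lies after the start, so that the bases before the start hold the motif in Fcgr3 alone, 1 of 8, and in 9.55% of all genes. The 2 motifs do not overlap in these windows. The 5 windows with the hexamer are shown up to the start, 5′ to 3′ on the gene's strand, with the hexamer in capitals, which reads TTCCTC where it lies on the other strand. Its first base is 55 bases before the start in Fcgr1, 6 in Fcgr3, 22 in Fcgr4, 162 in Trem1 and 40 in Trem2.
Fcgr1, chr3:96293970-96294219, minus strand: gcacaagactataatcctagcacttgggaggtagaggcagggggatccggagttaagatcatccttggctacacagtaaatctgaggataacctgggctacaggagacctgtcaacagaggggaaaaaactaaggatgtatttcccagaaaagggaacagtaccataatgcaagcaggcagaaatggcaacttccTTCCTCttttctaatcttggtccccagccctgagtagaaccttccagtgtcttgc
Fcgr3, chr1:171059404-171059653, minus strand: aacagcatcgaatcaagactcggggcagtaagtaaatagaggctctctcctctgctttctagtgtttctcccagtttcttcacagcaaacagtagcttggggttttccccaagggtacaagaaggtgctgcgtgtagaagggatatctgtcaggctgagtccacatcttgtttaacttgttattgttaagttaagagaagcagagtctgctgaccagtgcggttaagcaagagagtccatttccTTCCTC
Fcgr4, chr1:171018676-171018925, plus strand: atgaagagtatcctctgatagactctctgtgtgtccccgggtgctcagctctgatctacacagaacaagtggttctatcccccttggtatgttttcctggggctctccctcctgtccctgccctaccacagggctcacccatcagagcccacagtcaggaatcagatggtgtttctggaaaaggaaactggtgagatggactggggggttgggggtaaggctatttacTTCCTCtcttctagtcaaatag
Trem1, chr17:48232489-48232738, plus strand: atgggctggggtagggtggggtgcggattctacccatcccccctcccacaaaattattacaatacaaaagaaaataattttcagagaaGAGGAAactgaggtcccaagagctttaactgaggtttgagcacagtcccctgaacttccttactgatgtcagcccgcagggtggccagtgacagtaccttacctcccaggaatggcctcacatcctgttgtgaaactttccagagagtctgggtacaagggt
Trem2, chr17:48346151-48346400, plus strand: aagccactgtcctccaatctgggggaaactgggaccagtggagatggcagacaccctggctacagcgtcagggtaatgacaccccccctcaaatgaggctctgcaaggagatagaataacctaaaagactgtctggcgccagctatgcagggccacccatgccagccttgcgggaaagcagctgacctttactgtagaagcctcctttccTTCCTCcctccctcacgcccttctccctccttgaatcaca
Spi1, which encodes PU.1, had 30 and 25 counts in Lgr6-positive libraries, against 2975 and 2859 in Lgr6-negative libraries. The matches describe these letters only and show no binding.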

How the data were processed

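RNA of 4 libraries was amplified and read in pairs, per the labels' protocols. The deposited values are the authors' expected counts (estimated reads per gene, with no scaling for depth). Per the submitters' processing notes, RSEM 1.2.22, STAR 2.4.2a and mm10 were used; the sources used here name no annotation, strand setting or trimming. Values were rounded to whole counts. Groups and replicate numbers came from the labels.

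Counts were tested with edgeR 4.0.16 in R 4.3.3 (TMM, filterByExpr with minimum count 10 and minimum total 15, glmQLFit, glmQLFTest, a 2-group design with no covariate, Benjamini-Hochberg adjustment over 11661 genes). Each SE was derived from the fold change and its F statistic. Steps were tested on simulated data. Alternatives used DESeq2 1.42.0, limma 3.58.1, other scalings and filters, a replicate block and single libraries left out. Replicates held different values. Gene models came from GENCODE M21 (GRCm38), matched for 23404 of 24442 symbols. Descriptions used Python 3.11.15.

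The members and 17 gene lists (7 related, 10 of cell type markers) were chosen with earlier results of these data known. Named genes are the members, Lgr6, up to 3 tested genes of smallest p per list, and the 5 genes nearest to Tyrobp and to Fcer1g. Syk, Pik3r1, Klrk1, Apoe, C1qc, Retnlg, Spi1, Fcer1a, Ms4a2, Ltf and genes named for having no counts were named after their values were seen, and not every gene the rule allows is named; 1 gene is not reported here. Protein identity between the IgG receptors was not analysed here.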

Additional observations from a re-analysis of the deposited data

How the results depend on the processing

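Fcer1g, Tyrobp and Trem1 were called lower under each of 14 alternatives, and Fcgr2b under 11 of 12, with the exception given above. Of the 14, 2 only summed IgG receptor rows, left the counts of Fcer1g, Tyrobp and Trem1 unchanged and are no real check of them. Of the 9 genes, between 3 (total counts) and 6 (DESeq2) were called lower over the alternatives, and 4 to 5 when a library was left out. The alternatives without Lgr6-positive replicate 1 and scaling by total counts reversed the sign of Trem2 (log2 fold change 0.31 and 0.12), whose range with 1 library left out was -1.40 to 0.31. The sums of Fcgr3 with Fcgr2b (-2.80) and with Fcgr2b and Fcgr4 (-2.71) passed, while Fcgr3 alone (-2.01) did not; both sums hold Fcgr2b, which passed alone. Genes called over the whole table numbered 1057, with 2415 in DESeq2, 1821 without a filter and 1218 to 1986 with 1 library left out. Under scaling by total counts the median gene moved up by 0.45 (log2), and 65.8% of its calls were higher, beside 49.6% as reported and 58.5% in DESeq2. Genes of the 7 related lists called lower numbered 35, and 26 to 51 over the alternatives, with 35 to 45 when a library was left out. With the replicate block, 1340 genes and the same 4 members were called. The labels give same-numbered libraries no tie beyond the number, and the planned fit without the block is reported. Deviations of same-numbered libraries correlated at -0.02 across genes, which cannot show whether they shared an animal or a sort. With 2 libraries per group, genes that did not pass may still differ.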
